A study of Mus musculus with 23 samples.

Results

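The genes described here are 10 mouse genes of the spindle assembly checkpoint and of cohesin protection: Bub1, Bub1b, Bub3, Mad2l1, Mad1l1, Ttk, Sgo1, Sgo2a, Sgo2b and Rec8. They were taken by symbol from 2 count tables of 56196 genes each, and all 10 were found in both. The study compared mice labelled wild type (WT) with mice labelled Eif4enif1+/- (het), heterozygous for the gene that encodes 4E-T, a partner of the cap-binding factor eIF4E found in cytoplasmic mRNA granules. GV oocytes, the fully grown oocytes held in meiotic prophase, were split by T&T-seq into a transcriptome (total mRNA) and a translatome (mRNA captured on ribosomes), with 2 libraries for each fraction and genotype. Poly(A) RNA-seq covered 5 groups of embryos with 3 libraries each: untreated 1-cell embryos of either genotype, 2-cell embryos of either genotype cultured for 24 h in vitro, and het embryos that had stayed at the 1-cell stage through 24 h in culture (arrested). No arrested WT group was analysed here, and the labels do not say whether an embryo's genotype is its own or its mother's. The sources used here do not describe the mutant allele or how many oocytes or embryos were pooled in a library.

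The spindle assembly checkpoint delays anaphase until every kinetochore, the protein platform on a centromere, is attached to spindle microtubules. The kinase TTK (MPS1) starts the signal, BUB1 and MAD1 (product of Mad1l1) carry it at the kinetochore, and MAD2 (Mad2l1), BUBR1 (Bub1b) and BUB3 form the inhibitor of the anaphase-promoting complex (APC/C). Cohesin rings hold sister chromatids together. REC8 is the meiotic ring subunit that separase cuts, and shugoshins (Sgo1, Sgo2a, Sgo2b) bring the phosphatase PP2A to centromeres to shield it. In oocytes these proteins act through both meiotic divisions, and the cohesin that shugoshins protect there was laid down before birth. The mRNAs present before zygotic transcription are maternal.

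Sequence elements described for such genes were searched first. Their part in the levels and changes below was not tested. The cell cycle genes homology region (CHR) is a promoter hexamer of many genes transcribed late in the cell cycle. Its spelling TTTGAA, its variant TTCGAA and its variant TTTAAA were searched on both strands from 50 bases before to 50 bases after each start site in RefSeq promoter entries (GRCm38.p6). TTCGAA and TTTAAA read the same on both strands, and no hit overlapped another. All 10 genes had an entry, 13 entries in all, and 6 genes held a hexamer, in 6 of the 13 entries. Over all 32851 entries 8.62% held one (TTTGAA 4.94%, TTTAAA 3.64%, TTCGAA 0.374%). The windows of 30 bases around each hit are shown 5′ to 3′ on the strand of the gene, with the hexamer in capitals, and TTCAAA is TTTGAA on the opposite strand.
Bub1, chr2:127831828-127831857, minus strand: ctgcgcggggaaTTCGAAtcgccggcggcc
Bub1b, chr2:118598231-118598260, plus strand: ctgcgtcaagagacgttaaaTTTGAAactt
Bub3, chr7:131560315-131560344, plus strand: gagccgttggcgTTCAAAatcagccaatga
Ttk, chr9:83834684-83834713, plus strand: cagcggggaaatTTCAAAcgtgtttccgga
Sgo1, chr17:53689271-53689300, minus strand: gtaacgcagaatTTCGAAtgtggcggcggt
Sgo2b, chr8:63952183-63952212, minus strand: tctcccgctgagTTTAAAcctgactcctag
The hexamer began 15 bases after the start site in Bub1, 41 after it in Bub1b, 28 after it in Sgo1 and 8 after it in Ttk. It lay 43 bases before the start site in 1 of the 2 Bub3 entries and 30 before it in Sgo2b. No hexamer was in the windows of Mad2l1, Mad1l1, Sgo2a and Rec8.

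The cytoplasmic polyadenylation element (CPE) is a U-rich element near the end of oocyte mRNAs that is bound by CPEB1 and takes part in switching stored mRNAs into translation. It was searched as TTTTAT or TTTTAAT, on the mRNA strand, in the last 100 bases of the principal GENCODE vM21 transcript. Of the 8 members with a 3′ untranslated region of at least 100 bases, Bub1b and Sgo2a held it. Over 19351 mRNAs 17.9% held it, and 14.4% held it together with a polyadenylation hexamer (AATAAA or ATTAAA). Windows of 30 bases are shown on mm10 with the CPE in capitals, 2 for Bub1b and 1 for Sgo2a.
Bub1b, first CPE, chr2:118641521-118641550, plus strand: tctcttttgtaaTTTTATaacatgtactct
Bub1b, second CPE, chr2:118641553-118641582, plus strand: tttcactgtgtaTTTTATaataaaatagtt
Sgo2a, chr1:58025825-58025854, plus strand: acttatgtatcaTTTTATcattaattctct
The second Bub1b element lay directly before the polyadenylation hexamer AATAAA, with 0 bases between them, and the first ended 32 bases before it. In Sgo2a the CPE ended 33 bases before ATTAAA. Bub1, Bub3, Mad2l1, Mad1l1, Ttk and Sgo1 had none in this window, and Sgo2b and Rec8 were not searched because their annotated 3′ untranslated regions were too short (0 and 34 bases). The Mad2l1 window, at the end of an annotated 3′ untranslated region of 6802 bases, held no polyadenylation hexamer either. Whether oocyte Mad2l1 mRNA ends there was not tested.

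Levels are in CPM, which scales a gene's counts to a library of 1 M counts after TMM scaling, which adjusts libraries for differences in composition. Library totals lay between 3.62 M and 50.49 M counts in GV oocytes and between 5.6 M and 40.38 M in embryos. Eif4enif1 was lower in every het library than in every WT library of the same fraction in GV oocytes, at 87.3 to 149.9 CPM against 217 to 312 CPM. The same held in 1-cell embryos, at 69.2 to 72.1 CPM against 134 to 178 CPM, and in 2-cell embryos, at 38.2 to 54.9 CPM against 55.3 to 76.3 CPM. Arrested libraries 1, 2 and 3 held 110, 28.5 and 62.7 CPM, so library 1 lay above every WT 2-cell library and below every WT 1-cell library. Of 12 oocyte markers none was at 0 in any library. Het 1-cell libraries 1 and 3 stood apart from the other 1-cell libraries: their 100 most abundant genes held 6.34% and 5.53% of counts, against 32.06% to 38.05%, and their summed oocyte markers were 1736 and 1433 CPM, against 7275 to 8596 CPM. The 3 arrested libraries were also unlike each other: 9 genes of the 2-cell stage summed to 46.2 CPM in library 1, against 3138 and 2106 CPM in libraries 2 and 3 and 11.3 to 31.0 CPM in 1-cell libraries. Member and list results that rest on het 1-cell libraries 1 and 3 are also given without them. In such bulk samples, fewer cells of a type and less RNA per cell cannot be told apart. Polyadenylated RNA was measured, so a change in poly(A) tail length and one in mRNA amount cannot be told apart either. No label ties replicates to separate animals, which leaves p-values as a measure of the spread among these libraries only.

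Per kb of exon, Bub1b was the most abundant of the 10 mRNAs in WT GV oocytes, at 126 CPM per kb in the translatome and 72.7 CPM per kb in the transcriptome (means, n = 2). Mad2l1 (40.7 and 55.3 CPM per kb) and Bub3 (32.4 and 42.5 CPM per kb) came next, and the ranges of these 3 genes over libraries did not overlap in either fraction. The length is that of all annotated exons of a gene, 4275 bp for Bub1b and 8390 bp for Mad2l1, and the order depends on it. In CPM without it, Mad2l1 (464) was above Bub1b (311) in the WT transcriptome and below it in the WT translatome (341 against 540). The lengths of the mRNAs present in oocytes were not measured. The shugoshin mRNAs were lower, at 9.8 CPM per kb for Sgo1, 2.65 for Sgo2a and 1.66 for Sgo2b in the WT translatome. In WT 1-cell embryos the order was different: Mad2l1 led at 269 CPM per kb, followed by Bub1b (65.6), Sgo1 (42.0) and Bub3 (30.5). There the ranges of Bub1b and Sgo1 overlapped, as did those of Sgo1 and Bub3. In WT 2-cell embryos Mad2l1 still led at 70.3 CPM per kb, Sgo1 (38.8) and Bub3 (35.8) overlapped as the next pair, and Bub1b was in the seventh place at 2.11 CPM per kb, where its range overlapped that of Mad1l1. The GV and embryo tables were normalized separately, so these orders are set side by side with no test between them.

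Rec8 mRNA was at the edge of detection throughout. In GV oocytes it had 2 counts in 1 of the 8 libraries, a WT transcriptome library, and 0 in the other 7. A count of 0 allows up to 0.0428 CPM over the het translatome libraries and 0.0524 CPM over the WT translatome libraries (3 counts over the group; floors and intervals cover counting error only, since reads carried no molecular identifiers). It had 0 counts in all 9 of the 1-cell and arrested libraries, and 5, 9 and 9 counts in WT 2-cell libraries and 0, 11 and 3 in het 2-cell libraries. Pooled over the group this was 0.238 CPM in WT 2-cell embryos (95% exact Poisson interval 0.151 to 0.357) and 0.214 CPM in het 2-cell embryos (0.117 to 0.359). These pooled levels were 3.94-fold above a floor of 3 counts over the 1-cell group in WT and 2.73-fold above it in het. The folds use the pooled values and not the lower ends of their intervals, so they are not lower bounds. Rec8 did not pass the low-count filter of either table, so 9 of the 10 genes were tested.

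The T&T-seq design compares ribosome-bound with total mRNA in the same specimens. Mad1l1, which recruits MAD2 to unattached kinetochores, was the 1 member that fell in the het translatome. It stood at 95.2 and 84.9 CPM in the WT translatome libraries and at 47.5 and 40.1 CPM in the het ones, and the 4 values did not overlap. The log2 fold change was -1.04 (SE 0.27, edgeR adjusted p = 0.0461). Over all 22409 genes tested 2.01% fell, against 1 of the 9 members. Bub1b, the checkpoint pseudokinase BUBR1, was at 598 and 481 CPM in WT and at 277 and 312 CPM in the het translatome. Its groups did not overlap either, but its log2 fold change of -0.88 (SE 0.25) did not pass the test (adjusted p = 0.0601). Sgo2b (6.92 and 5.76 CPM against 2.95 and 2.52 CPM, log2 -1.21, adjusted p = 0.0686) and the kinase Bub1 (81.3 and 86.2 CPM against 56.4 and 43.5 CPM, log2 -0.74, adjusted p = 0.115) also had separate groups and missed the threshold. The share of all genes whose groups did not overlap was not counted, here or below, so a lack of overlap is a description only. DESeq2 called 3 members here, Mad1l1, Bub1b (adjusted p = 0.0073) and Sgo2b (adjusted p = 0.0307). Over all genes it called 1839 of 20186.

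The other 5 tested members showed small differences on ribosomes. Mad2l1 was at 335 and 348 CPM in WT and at 329 and 338 CPM in het translatome libraries, a log2 difference of -0.03 (SE 0.24). Bub3, the BUB1 and BUBR1 adaptor, was at 212 and 242 CPM against 203 and 219 CPM (log2 -0.11). Sgo1 was at 38.1 and 36.5 CPM against 31.1 and 43.0 CPM (log2 -0.01). The ranges of the genotypes overlapped in these 3 genes. Ttk (log2 -0.21) and Sgo2a (log2 -0.39) had SEs of 0.26 and 0.30. Sgo2a overlapped as well, while Ttk did not, at 109 and 84.5 CPM in WT and 84.3 and 83.1 CPM in het. The median log2 change of the 9 members was -0.39, against 0.04 over all genes tested.

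In the transcriptome no member changed between genotypes by edgeR, where 2.55% of all genes did. An unadjusted p under 0.05 was found for 2 members and for 4389 of all 22409 genes. DESeq2, the other count test run, called 2 members, Mad1l1 and Sgo2a, and 1401 of 18722 genes. Mad1l1 was at 46.7 and 64.1 CPM in WT and 34.5 and 23.6 CPM in het libraries (log2 -0.95, SE 0.28, adjusted p = 0.081), without overlap. Sgo2a, the shugoshin needed for centromeric cohesion in oocytes, was at 35.5 and 26.0 CPM in het and at 15.4 and 15.9 CPM in WT libraries, also without overlap (log2 0.96, SE 0.31, adjusted p = 0.109). The exons of Sgo2a share 2455 bp (35.0%) with Kctd18 on the opposite strand, and no source used here states a strand setting, so reads of the pair cannot be told apart. In the transcriptome Kctd18 itself had 25 and 12.2 CPM in het libraries, and 10.5 and 13 CPM in the WT ones.

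Sgo2a was the 1 member whose 2 fractions differed in het oocytes by edgeR. It had 10.4 and 17.9 CPM in the het translatome and 35.5 and 26.0 CPM in the het transcriptome, a ratio of ribosome-bound to total of 0.293 and 0.689 in the 2 specimens. In WT the ratio was 1.25 and 1.13. The het difference was log2 -1.11 (SE 0.31, adjusted p = 0.0442), where 1.91% of all genes were lower on ribosomes in het oocytes. Sgo2b had 2.95 and 2.52 CPM in the het translatome and 5 and 7.5 CPM in the het transcriptome, without overlap, and missed the threshold (log2 -1.23, SE 0.37, adjusted p = 0.0557). DESeq2 called both. In WT oocytes Bub1b was enriched on ribosomes, at 598 and 481 CPM against 292 and 329 CPM. Its ratio was 2.05 and 1.46 (log2 0.80, SE 0.25, adjusted p = 0.0453), where 8.95% of all genes were higher in the WT translatome. In het oocytes the Bub1b ratio was 1.27 in both specimens (log2 0.34, adjusted p = 0.4).

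The test of the difference itself, the translatome change minus the transcriptome change between genotypes, called no member by edgeR (0.0134% of all genes), and neither did DESeq2. An unadjusted p under 0.05 was found for 3 members and for 1999 of all 22409 genes, and DESeq2 called 108 of 16527 genes. The values were -1.36 for Sgo2a (SE 0.43, adjusted p = 0.457), -1.36 for Sgo2b (SE 0.50), -0.95 for Bub1 (SE 0.36) and -0.45 for Bub1b (SE 0.35). For Kctd18 the value was -1.19 (SE 0.48). The Bub1 ratio was 1.61 and 1.19 in WT and 0.763 and 0.634 in het specimens, and that of Sgo2b 1.33 and 0.898 against 0.589 and 0.337. For Mad1l1, whose ratio was 2.04 and 1.32 in WT and 1.38 and 1.7 in het, the difference was -0.09 (SE 0.38). The Mad1l1 call was lost without any 1 of the 4 translatome libraries (adjusted p from 0.0826 to 0.278) and with the replicate block (0.0687). The Bub1b call in WT was lost without 3 of its 4 libraries in turn and kept without WT translatome library 2 (0.0491 to 0.232), and the Sgo2a call in het was lost without 3 of 4 and kept without het translatome library 2 (0.0341 to 0.393).

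**Figure D1:**
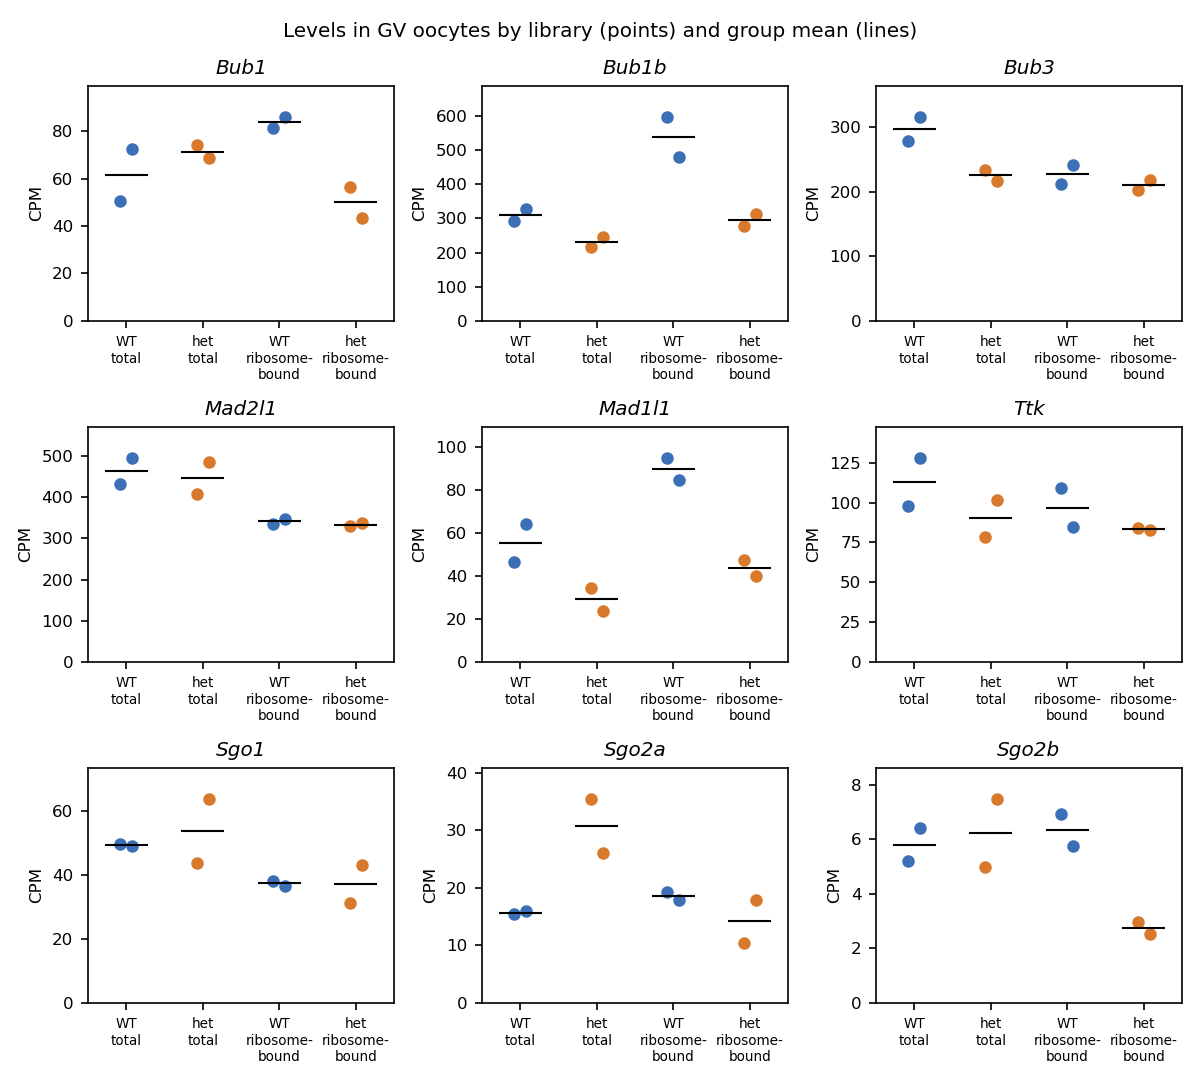
Levels of the 9 tested genes in GV oocytes, in CPM from 0, with 1 point per library and a line at the mean of 2. The het points of Mad1l1 lie below the WT points of the same fraction, and Bub1b is highest in the WT ribosome-bound libraries, at 598 and 481 CPM.

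Transcripts listed as markers of other cells differed with genotype in the same libraries. Summed over 18 granulosa markers, het libraries held 721 and 1069 CPM in the translatome and 439 and 323 CPM in the transcriptome. The WT libraries held 203 and 407 CPM and 119 and 208 CPM. Of these markers 5 rose in the translatome and 6 in the transcriptome, and Inha, Gja1 and Amhr2 were above 0 in every GV library. The 8 oviduct markers summed to 30.8 to 48.6 CPM in het and 8.15 to 15.1 CPM in WT translatome libraries, and to 16.4 to 25.5 CPM and 5.03 to 7.32 CPM in the transcriptome. Of these the keratin Krt8 rose in both fractions and Krt18 in the translatome, while Foxj1 was at or under 0.0961 CPM. The list did not rise as a whole: the median log2 change of the 6 oviduct markers tested was -0.28 in the translatome and 0.28 in the transcriptome. The 7 sperm markers summed to 11.9 to 15.1 CPM in het and 4.67 to 8.07 CPM in WT translatome libraries, where Acrv1 rose, and to 16 to 23.1 CPM and 12.2 to 13 CPM in the transcriptome. Their part in the differences above was not tested.

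The other genes of the pathway were read from 3 lists: 25 further checkpoint and kinetochore genes, 28 genes of cohesin, its loading, protection and release, and 20 genes of the APC/C and its regulators. In the translatome of het against WT oocytes none of the first 2 lists changed by edgeR, with medians of -0.1 and 0.07. In each of them 5 genes had an unadjusted p under 0.05, and DESeq2 called 0 of the first and 3 of the second. Over all genes 4780 of 22409 had one, and DESeq2 called 1839 of 20186. Of the third list Anapc2, an APC/C catalytic core subunit, fell (log2 -1.0, SE 0.27). In the transcriptome the PP2A catalytic subunit Ppp2ca rose (log2 1.67, SE 0.36), as did the APC/C subunit Cdc27 (log2 1.19, SE 0.24), and no other gene of the lists changed by edgeR. Of the 25 checkpoint and kinetochore genes 3 had an unadjusted p under 0.05 there, and DESeq2 called 1. Of the cohesin list 12 had an unadjusted p under 0.05 and DESeq2 called 4, and of the APC/C list 5 had one and DESeq2 called 3. Over all genes 4389 of 22409 had one there, and DESeq2 called 1401 of 18722. Between fractions in WT oocytes, 2 checkpoint, 2 cohesin and 2 APC/C genes were higher on ribosomes and 3 APC/C genes were lower. Over all genes 8.95% were higher and 5.64% lower. In het oocytes 1 checkpoint and 3 APC/C genes were higher, and 3 cohesin and 2 APC/C genes were lower, against 6.19% and 1.91% of all genes. The kinetochore genes Kntc1 (log2 1.56) and Zw10 (1.0), which belong to the ROD-Zwilch-ZW10 complex, and separase Espl1 (1.6) were enriched on WT ribosomes. Zw10 was enriched on het ribosomes as well (0.97). The cohesin acetyltransferase Esco1 (log2 -1.42), the release factor Wapl (-1.45) and the ring subunit Stag2 (-1.33) were lower on het ribosomes than in total mRNA.

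In 1-cell embryos no member differed between het and WT, by edgeR or by DESeq2, and none had an unadjusted p under 0.05, in a comparison where 0% of all genes were called. Eif4enif1, which was lower in every het 1-cell library, was not called by edgeR either (log2 -1.12, SE 0.41). A missing call here therefore does not show equal levels. Mad2l1 separated the libraries most. It was at 2997, 2055 and 1717 CPM in WT and at 228, 2575 and 180 CPM in het libraries 1, 2 and 3, so library 2 lay inside the WT range and libraries 1 and 3 far below it. The log2 fold change was -1.18 (SE 0.84, adjusted p = 1), and 0.21 without libraries 1 and 3. Without library 2 it was -3.48 (adjusted p = 0.00918). Bub1b was at 187, 259 and 395 CPM in WT and 174, 211 and 149 CPM in het 1-cell libraries, which overlap (log2 -0.66, SE 0.66). Sgo1 was at 151, 169 and 159 CPM in WT and 134, 150 and 119 CPM in het, where the 2 het libraries that stood apart were the lowest.

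In 2-cell embryos no member differed between genotypes either, by edgeR or by DESeq2, against 0.00423% of all genes. Eif4enif1 was again lower in every het library and not called by edgeR (log2 -0.60, SE 0.41). An unadjusted p under 0.05 was found for 1318 of all 23656 genes and for 1 member, Sgo2b. It had 114, 34 and 22 counts in WT 2-cell libraries (3.62, 1.5 and 0.518 CPM) and 5, 0 and 1 counts in het ones. The groups did not overlap (log2 -4.21, SE 1.43, adjusted p = 0.829). Bub3 was at 295, 237 and 221 CPM in WT and at 126, 134 and 266 CPM in het libraries, which overlap (log2 -0.52, SE 0.43). Sgo1 was at 154, 130 and 159 CPM against 98.5, 67.9 and 125 CPM, without overlap (log2 -0.60, SE 0.38, adjusted p = 1). No gene of the 3 pathway lists was called between genotypes in 1-cell or 2-cell embryos by edgeR or by DESeq2, and in each list 0 or 1 gene had an unadjusted p under 0.05 by edgeR. Over all 23656 genes 888 had one in 1-cell and 1318 in 2-cell embryos.

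Between the 1-cell and the 2-cell stage Bub1b mRNA fell in both genotypes. In WT it went from 187, 259 and 395 CPM in 1-cell libraries to 7.64, 10.5 and 8.85 CPM in 2-cell libraries, a log2 change of -4.96 (SE 0.78, adjusted p = 2.8e-04). In het it went from 174, 211 and 149 CPM to 11.5, 9.16 and 5.96 CPM, a log2 change of -4.32 (SE 0.76, adjusted p = 9.1e-04). Every 2-cell library lay more than 10-fold below every 1-cell library of either genotype. Both calls held when any 1 library was left out (highest adjusted p = 0.0025 in WT and 0.00674 in het), and without het 1-cell libraries 1 and 3 the changes were -5.04 and -4.71. The difference between the genotypes was 0.64 (SE 0.93, adjusted p = 1).

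Bub1b was the 1 member that fell in WT by edgeR, where 17.9% of all genes fell. In het 3 members fell, where 13.9% of all genes did: Bub1b, Sgo2a and Sgo2b. With only the compared groups in the fit 5 members fell and 1 rose in WT, and 5 fell in het. Sgo2b, a second copy of the shugoshin 2 gene on chromosome 8, went from 31.7, 19.1 and 29.5 CPM in het 1-cell to 0.246, 0 and 0.0505 CPM in het 2-cell libraries (log2 -8.04, SE 1.62, adjusted p = 0.0021), and without het 1-cell libraries 1 and 3 the change was -7.70 (adjusted p = 0.0285). In WT it went from 19.2, 17.9 and 11.3 CPM to 3.62, 1.5 and 0.518 CPM (log2 -3.10, SE 1.25), which missed the threshold at an adjusted p of 0.0527 and passed it with DESeq2 (0.0428). The groups did not overlap in either genotype, and the difference between the genotypes was not called (log2 -4.94, SE 1.82, adjusted p = 1).

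Sgo2a had 103, 62.9 and 106 CPM in het 1-cell and 26.6, 15.3 and 34.5 CPM in het 2-cell libraries (log2 -1.83, SE 0.47, adjusted p = 0.0078). Without het 1-cell libraries 1 and 3, which held the 2 highest values, the change was -1.44 and its adjusted p 0.178. In WT it was at 62.2, 66.7 and 75.6 CPM and then at 36.1, 33.2 and 42.6 CPM, again without overlap (log2 -0.87, SE 0.46, adjusted p = 0.125). Kctd18, which shares exon sequence with it, was at 69.0, 42.1 and 66.4 CPM in het 1-cell and 21.4, 31.6 and 43.0 CPM in het 2-cell libraries (log2 -0.89, adjusted p = 0.108).

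The other checkpoint mRNAs did not pass the edgeR test. Bub1 was at 44.6, 33.0 and 17.4 CPM in WT 1-cell and 65.3, 46.4 and 57.8 CPM in WT 2-cell libraries (log2 0.84, SE 0.42, adjusted p = 0.115, and 0.0325 with DESeq2). Bub3 differed by 0.23 on the log2 scale (SE 0.43) in WT and by 0.08 (SE 0.43) in het. Sgo1, which protects cohesin at mitotic centromeres, differed by -0.11 (SE 0.38) in WT, from 151, 169 and 159 CPM to 154, 130 and 159 CPM. Ttk went from 66.9, 50.2 and 44.7 CPM to 23.8, 17.0 and 26.4 CPM in WT without overlap (log2 -1.27, SE 0.72) and had a log2 difference of -1.92 (SE 0.73, adjusted p = 0.0518, and 0.048 with DESeq2) in het.

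Mad2l1 was the most abundant member per kb in WT at both stages. In het 1-cell embryos library 2 carried its mean, and its range overlapped that of Bub1b. It went from 2997, 2055 and 1717 CPM to 636, 502 and 631 CPM in WT, with no overlap, a log2 change of -1.94 (SE 0.86, adjusted p = 0.0752). In het the 2-cell libraries stood at 538, 452 and 552 CPM, between 1-cell library 2 (2575 CPM) and libraries 1 and 3 (228 and 180 CPM), and the change was -0.95 (SE 0.84). Without het 1-cell libraries 1 and 3 the change was -2.01 in WT (adjusted p = 0.011) and -2.46 in het (adjusted p = 0.0409). Without library 2 it was 1.34 in het, with the opposite sign. Mad1l1 had 11.9, 14.9 and 14.6 CPM in WT 1-cell and 4.47, 4.05 and 11.0 CPM in WT 2-cell libraries (log2 -1.08, SE 0.54), and did not pass the test in either genotype. No member showed a difference in its 1-cell to 2-cell change between genotypes by edgeR (0.00423% of all genes) or by DESeq2. An unadjusted p under 0.05 was found for 1 member and for 1049 of all 23656 genes.

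**Figure D2:**
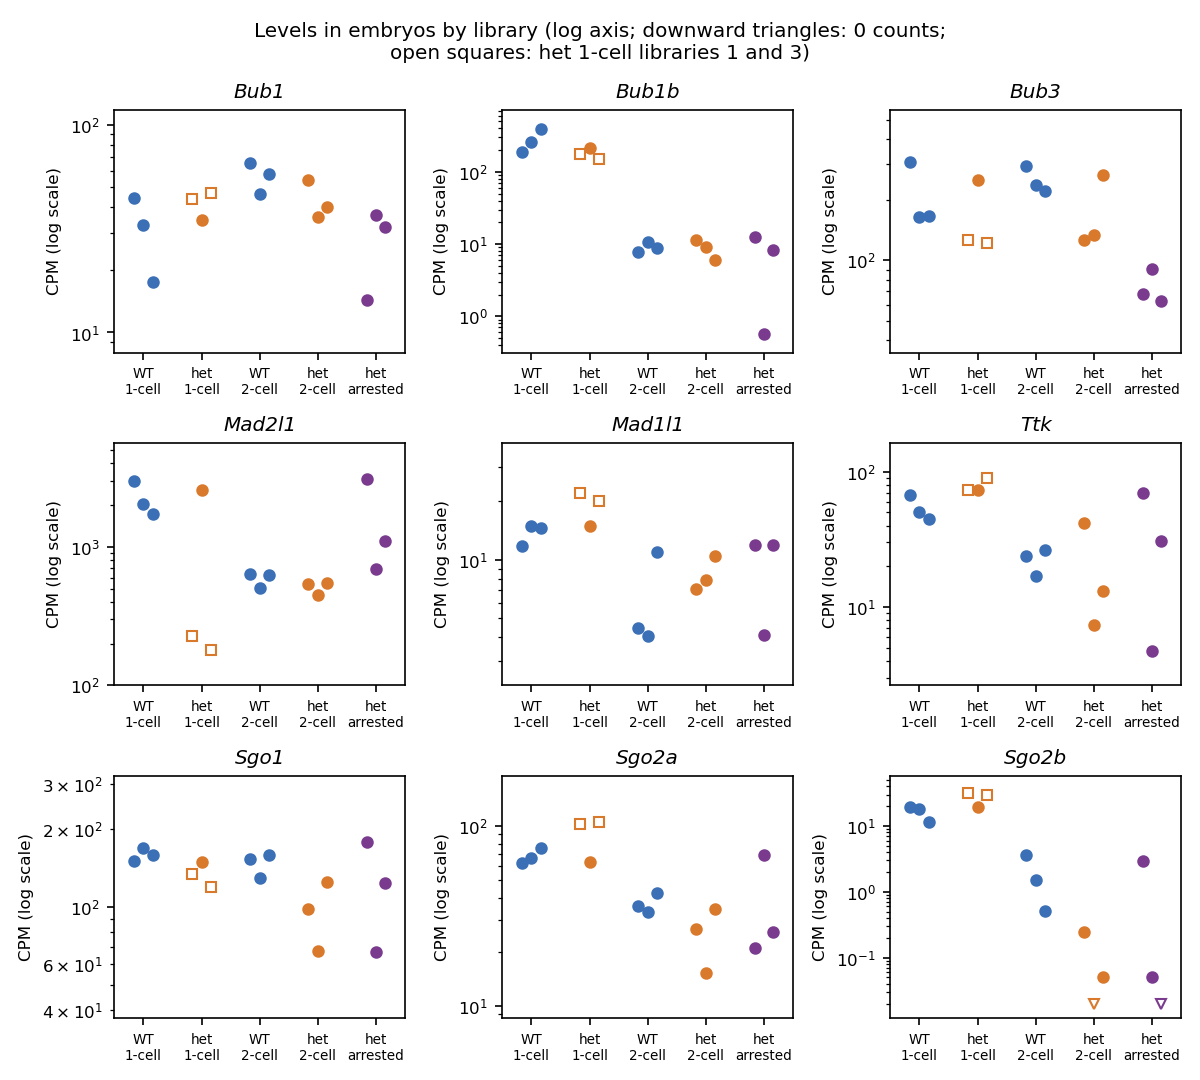
Levels of the 9 tested genes in embryos, in CPM on a log axis, with 1 point per library, open squares for het 1-cell libraries 1 and 3 and downward triangles at the floor of the axis for 0 counts. Bub1b lies between 149 and 395 CPM in 1-cell libraries and between 0.566 and 12.6 CPM in the 2-cell and arrested ones.

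The pathway lists moved in both directions over this transition. Of the 25 checkpoint and kinetochore genes 9 rose and 5 fell in WT (median 0.21) and 8 rose and 7 fell in het (median -0.09), where the median over all genes tested was 0.59 and 0.36. Over all genes 28.5% rose and 17.9% fell in WT, and 22.8% rose and 13.9% fell in het. Without het 1-cell libraries 1 and 3, the called genes in het went from 8693 to 2017 over all genes, and those of this list were 1 higher and 4 lower. Those that fell included the kinetochore protein Cenpf (log2 -2.84 in WT and -3.16 in het) and the NDC80 complex subunit Nuf2 (-3.70 and -3.03). Those that rose included the MAD2-binding protein Mad2l1bp, which helps to silence the checkpoint (3.53 and 3.63), the microtubule coupler Ska1 (2.80 and 2.29) and the centromeric histone Cenpa (2.40 and 2.27).

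Of the 28 cohesin genes 3 rose and 6 fell in WT (median -0.25) and 2 rose and 7 fell in het (median -0.28), or 1 and 2 without those libraries. The ring subunit Smc3 (log2 -2.91 in WT and -2.24 in het), its meiotic partner Smc1b (-2.33 and -2.32), the loader Nipbl (-2.15 and -1.98) and the PP2A scaffold Ppp2r1a (-2.48 and -2.0) fell. The cohesin cofactor Pds5a rose (2.28 and 2.36). So did the PP2A catalytic subunit Ppp2cb, which had 0 counts in all 3 WT 1-cell libraries and 0, 0 and 1 in the het ones, and 34.0 to 45.2 CPM in WT and 27.5 to 44.0 CPM in het 2-cell libraries. Of the 20 APC/C genes 3 rose and 4 fell in WT, and 3 rose and 3 fell in het, or 0 and 3 without those libraries. The meiotic APC/C inhibitor Fbxo43 (Emi2) fell by 3.75 and 3.78, and the ubiquitin-conjugating enzyme Ube2c rose by 3.98 and 3.36. RLE scaling in place of TMM moved the median of all genes from 0.59 to 0.76 in WT and from 0.36 to 0.53 in het, and for arrested embryos from -0.01 to -0.14 against het 2-cell and from 0.01 to -0.11 against WT 2-cell. The medians are not subtracted from the member changes given here.

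Arrested embryos, which had the culture time of the 2-cell embryos without dividing, were compared with each other group. All 4 comparisons use the same 3 arrested libraries, and each control group also enters a comparison above, so they are not independent. Bub1b was as low as in 2-cell embryos, at 12.6, 0.566 and 8.34 CPM. It fell by 4.64 on the log2 scale against het 1-cell embryos (SE 0.77, adjusted p = 0.0026) and by 5.30 against WT 1-cell embryos (SE 0.79, adjusted p = 0.0013). Against 2-cell embryos it was called in neither genotype (log2 -0.32, SE 0.67, against het and -0.34, SE 0.67, against WT). The fall was present in every arrested library, including library 1, whose 9 genes of the 2-cell stage summed to 46.2 CPM. Leaving out any 1 library kept the call against het 1-cell (highest adjusted p = 0.0128) and WT 1-cell (0.00694), and with only the 2 groups in the fit the adjusted p against het 1-cell was 0.0763.

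**Figure D3:**
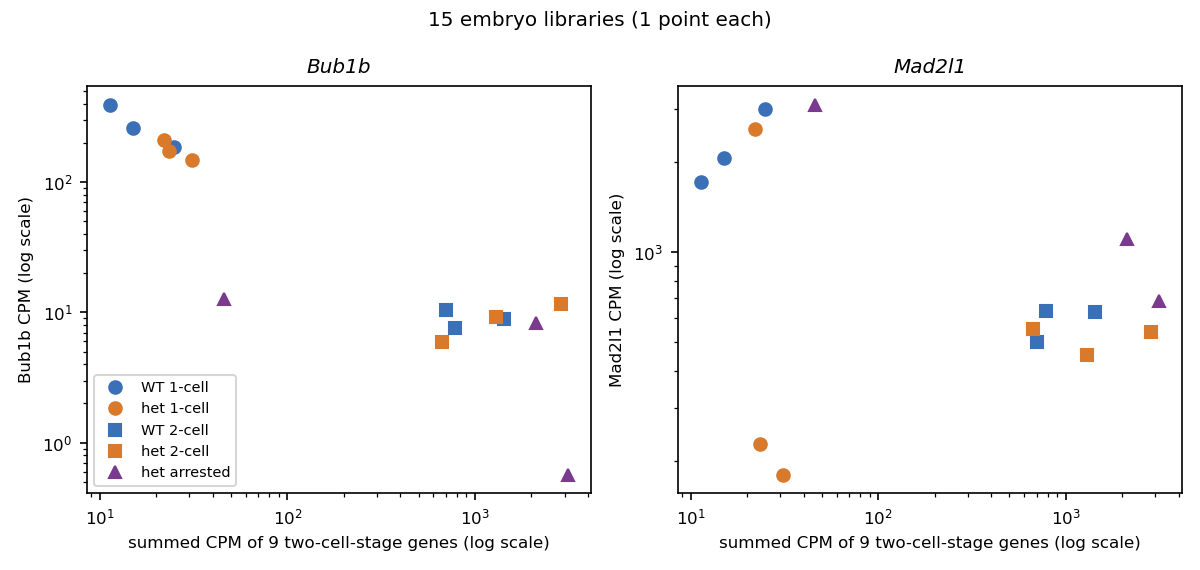
Bub1b (left) and Mad2l1 (right) in the 15 embryo libraries, in CPM on a log axis, against the summed CPM of 9 genes of the 2-cell stage, also on a log axis. Arrested library 1, at a sum of 46.2 CPM, has 12.6 CPM of Bub1b, next to the 2-cell libraries, and 3113 CPM of Mad2l1, next to the WT 1-cell ones.

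Against het 1-cell embryos 2 members fell, Bub1b and Sgo2b, where 3.91% of all genes fell. Sgo2b had 31, 1 and 0 counts in the arrested libraries (2.92, 0.0515 and 0 CPM) against 31.7, 19.1 and 29.5 CPM in het 1-cell libraries (log2 -4.80, SE 1.37, adjusted p = 0.0314). Against WT 1-cell embryos 3 members fell, where 5.44% of all genes fell: Bub1b, Sgo2b (log2 -4.07, SE 1.33, adjusted p = 0.0428) and Bub3. In both comparisons the Sgo2b groups did not overlap, and under RLE scaling the call against WT 1-cell was lost (log2 -3.90, adjusted p = 0.0521), as were both with only the compared groups in the fit (0.172 and 0.211). The Sgo2b value depended on arrested library 1, which held 31 of its 32 counts: without it the changes were -9.50 and -8.86. Leaving out any of the other 5 libraries ended the Sgo2b call in each comparison (adjusted p up to 0.0818 against het 1-cell and 0.1 against WT 1-cell), and without het 1-cell libraries 1 and 3 it was -4.36 (adjusted p = 0.288) and -4.10 (0.0873).

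Bub3 fell in arrested embryos against both WT groups. It was at 67.6, 90.3 and 62.6 CPM in arrested libraries, at 310, 164 and 166 CPM in WT 1-cell and at 295, 237 and 221 CPM in WT 2-cell libraries, so every arrested library lay below every WT one. It fell by 1.54 on the log2 scale against WT 1-cell (SE 0.44, adjusted p = 0.0252) and by 1.77 against WT 2-cell embryos (SE 0.44, adjusted p = 0.015), where 8.74% of all genes fell and Bub3 was the 1 member to do so. Against het embryos the groups did not overlap either. The het 1-cell libraries held 126, 250 and 122 CPM (log2 -1.18, SE 0.44, adjusted p = 0.0825) and the het 2-cell libraries 126, 134 and 266 CPM (log2 -1.25, SE 0.44, adjusted p = 0.0815), and neither passed the edgeR test. The call against WT 1-cell was lost without WT 1-cell library 1 (log2 -1.18, adjusted p = 0.117), WT 1-cell library 2 (-1.70, 0.0511) or arrested library 3 (-1.44, 0.0777), and without WT 2-cell library 1 that against WT 2-cell was -1.65 (adjusted p = 0.063). With only the compared groups in the fit neither call held (adjusted p = 0.0982 and 0.0551), and the replicate block gave 0.0502 against WT 1-cell.

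No member was called between arrested and het 2-cell embryos by edgeR, where 8.4% of all genes were. An unadjusted p under 0.05 was found for 2 members and for 6522 of all 23656 genes. DESeq2 called 1 member, Bub3 (log2 -1.36, adjusted p = 0.0222). Mad2l1 was at 3113, 687 and 1104 CPM in arrested libraries, all above the het 2-cell range of 452 to 552 CPM (log2 1.67, SE 0.85, adjusted p = 0.218) and the WT 2-cell range of 502 to 636 CPM (log2 1.47, SE 0.85). Library 1 lay with the WT 1-cell libraries and above them all. Against het 1-cell embryos the Mad2l1 change was 0.72 (SE 0.83), -0.24 without arrested library 1 and -0.79 without het 1-cell libraries 1 and 3, so its sign changed with the libraries used.

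The other 5 tested members were spread widely among the arrested libraries. Ttk was at 69.8, 4.74 and 30.6 CPM, a range that spans those of the WT 1-cell and of both 2-cell groups. Sgo1 was at 179, 66.8 and 124 CPM, with library 1 high and library 2 low. Bub1 was at 14.4, 36.7 and 32.3 CPM and Sgo2a at 20.8, 68.9 and 25.6 CPM, and library 2 was the highest in both. Kctd18 was high in that library too, at 51.9 CPM against 16.2 and 26.6 CPM. Without arrested library 2 Sgo2a was lower than in het 1-cell (log2 -1.96, adjusted p = 0.0124) and WT 1-cell embryos (log2 -1.63, adjusted p = 0.0209). Mad1l1 was at 11.9, 4.12 and 12 CPM. None of the 5 passed the edgeR test in any of the 4 comparisons with all libraries. Bub1 lay below every WT 2-cell library (46.4 to 65.3 CPM) in all 3 arrested ones (log2 -1.02, SE 0.43, adjusted p = 0.102), and DESeq2 called it there (log2 -1.17, adjusted p = 0.0203).

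**Figure D4:**
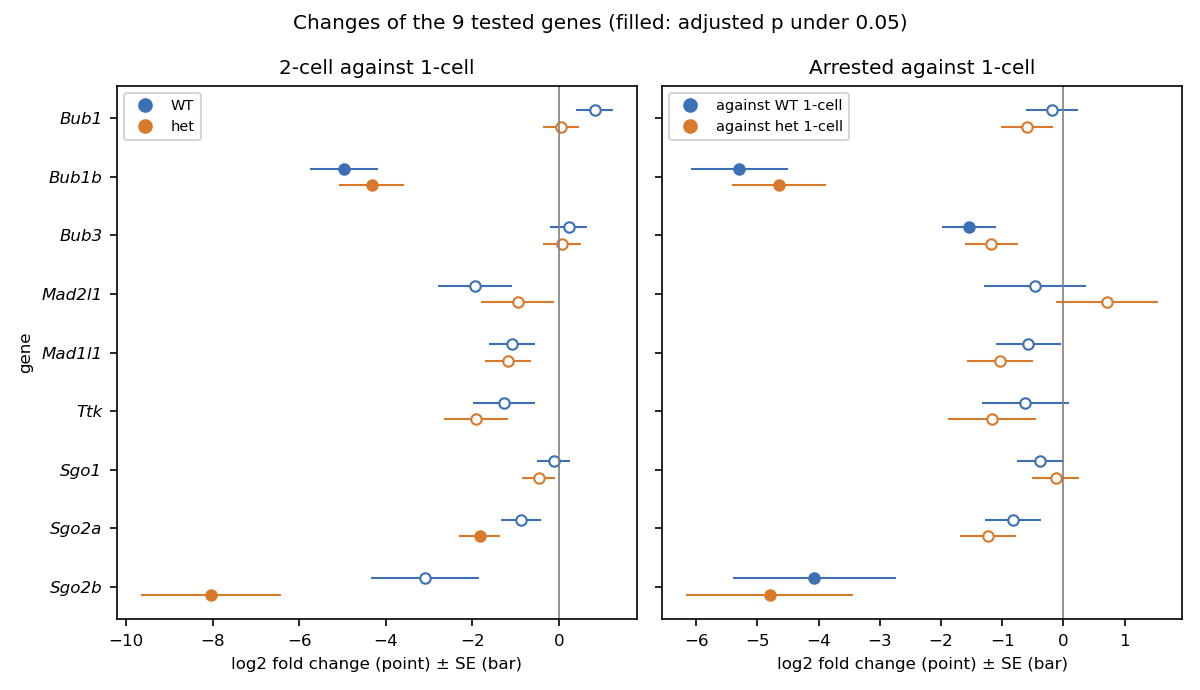
Log2 fold changes of the 9 tested genes with SE bars, 2-cell against 1-cell (left) and arrested against 1-cell (right), with filled points for adjusted p under 0.05. Bub1b is filled in all 4 comparisons, between -5.30 and -4.32.

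The pathway lists were counted in the same way. Of the 25 checkpoint and kinetochore genes 6 fell and 2 rose against het 2-cell (median -0.64) and 8 fell and 1 rose against WT 2-cell embryos (median -0.93), with medians over all genes of -0.01 and 0.01. Over all genes 4.55% fell and 3.85% rose against het 2-cell, and 8.74% fell and 10.1% rose against WT 2-cell embryos. Ska1 (log2 -2.75 and -3.18) and the ROD-complex subunit Zwilch (-2.99 and -3.28) were lower in both, as was Trip13, an ATPase that takes apart MAD2 complexes, against het 2-cell embryos (-3.03). Nuf2 was higher in both (3.45 and 3.60), and Cenpf was higher against het 2-cell embryos (1.86). The APC/C inhibitor Fbxo43 was higher than in either 2-cell group (3.83 and 3.67), in a list of 20 APC/C genes of which 1 rose and 2 fell against het and 1 rose and 4 fell against WT. With only the compared groups in the fit, no gene of these 2 lists was called in either comparison. An unadjusted p under 0.05 by edgeR was then found for 8 checkpoint and 4 APC/C genes against het 2-cell. Against WT 2-cell embryos it was found for 10 and 6.

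Against 1-cell embryos 0 of these 25 genes rose and 3 fell for het (median -0.46), and 1 rose and 6 fell for WT (median -0.38). Over all genes 9.97% rose and 3.91% fell against het 1-cell, and 14.1% rose and 5.44% fell against WT 1-cell embryos. Without het 1-cell libraries 1 and 3, the genes called against het 1-cell went from 3283 to 104 over all genes. In the lists 1 cohesin gene was then called lower and no gene of the other 2, where 6 checkpoint and 5 APC/C genes had an unadjusted p under 0.05 by edgeR, and DESeq2, with all libraries, called 7 and 5. Of the 28 cohesin genes 4 rose and 4 fell against het 1-cell (median 0) and 2 rose and 5 fell against WT 1-cell (median -0.31). The ring subunits Smc3 (log2 -3.39 and -4.01), Smc1a (-2.54 and -2.54) and Smc1b (-2.10 and -2.16) and separase Espl1 (-1.33 and -1.33) fell. The PP2A regulatory subunit Ppp2r5d rose (1.6 and 1.31), and against het 1-cell so did Wapl (2.07) and Esco1 (1.47). Ppp2cb also rose in both, with 0, 575 and 158 counts in arrested libraries 1, 2 and 3. Against het 2-cell embryos no cohesin gene was called by edgeR, 6 had an unadjusted p under 0.05 (6522 of all 23656 genes did), and DESeq2 called 1 higher and 3 lower. Against WT 2-cell embryos 2 rose and 1 fell, and under RLE scaling 0 rose and 1 fell. Of the 20 APC/C genes 2 rose and 2 fell against het 1-cell and 2 rose and 3 fell against WT 1-cell. With only the compared groups in the fit, no gene of the 3 lists was called against het 1-cell, and 1 cohesin gene was called lower against WT 1-cell. No cohesin gene was then called against either 2-cell group. An unadjusted p under 0.05 by edgeR was found in that fit for 5 checkpoint, 9 cohesin and 5 APC/C genes against het 1-cell, and for 8, 8 and 5 against WT 1-cell.

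Transcripts listed as markers of other cells also moved with stage. The 8 blood markers summed to 0.0514 to 3.98 CPM in 1-cell, 234 to 646 CPM in 2-cell and 7.44, 548 and 245 CPM in arrested libraries, while Ptprc, the pan-leukocyte gene, was at 0 in every embryo library. The 8 oviduct markers summed to 2.53 to 9.51 CPM in 1-cell, 176 to 300 CPM in 2-cell and 11.4, 169 and 92.1 CPM in arrested libraries, with Foxj1 at or under 0.308 CPM. The 18 granulosa markers summed to 61.4 to 134 CPM in embryo libraries, and the 7 sperm markers to 1.21 to 13.4 CPM. Their part in the stage changes was not tested.

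The genes whose levels followed the 3 most abundant members most closely were found over the 15 embryo libraries among 7082 genes averaging 10 CPM or more, as Pearson's r of log2(CPM + 1). For Mad2l1 they were Cib1 (r = 0.974) and Slbp (0.971), for Bub3 Tbp (0.912) and Rpf1 (0.907), and for Sgo1 Swt1 (0.867) and Trit1 (0.849). Without het 1-cell libraries 1 and 3, over 13 libraries, the values were 0.964, 0.969, 0.911, 0.905, 0.904 and 0.912. The libraries share stages and depth, the genes were chosen as the highest of all candidates, and the values are a description of these libraries.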

How the data were processed

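Polyadenylated RNA was measured in 8 GV oocyte and 15 embryo libraries. Each set came as 1 deposited table of whole-number read counts, which the authors had not normalized. Reads were processed with featureCounts 1.6.5, HISAT2 2.1.0 and Trim Galore 0.6.4 on mm10, per the submitters' processing notes. RiboLace was used to isolate mRNA on ribosomes and a single-cell full-length kit to amplify all mRNA, per the labels' protocols. These name no molecular identifier, so amplified copies count as reads. The sources used here do not state the annotation release, the strand setting or how multiply mapping reads were counted, and the paralogs Sgo2a and Sgo2b can share reads.

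Groups came from the sample labels. The quasi-likelihood test of edgeR 4.0.16 (R 4.3.3) was run on the counts after filterByExpr and TMM scaling, with 1 fit per table over all its groups and no replicate block. Adjustment was by Benjamini-Hochberg across the 22409 (GV) or 23656 (embryo) genes tested, with calls at an adjusted p under 0.05. The SE is derived from the F statistic. Exon lengths come from GENCODE vM21. The fit was tested on simulated data. The alternatives were RLE scaling, no low-count filter, DESeq2 1.42.0, only the compared groups, a replicate block, leaving out each library, and leaving out het 1-cell libraries 1 and 3.

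The members, the gene lists and the comparisons were chosen with earlier results of these data known. Named were all 10 members, from each pathway list up to 4 called genes per direction with the smallest p (of which a part is printed), and for the 3 members with the highest mean CPM in embryos the 2 genes of most similar pattern. Nek2 and Ppp2r5b appear on 2 lines each and were not used, nor was Duxf3. A shared number in the descriptions marks the 2 fractions of a GV specimen, and their deviations from the group means correlated at 0.247 in het and 0.0925 in WT over 11512 genes. Among embryos, 3 of 30 pairs with the same replicate number correlated above 0.1 (range -0.356 to 0.214), so the numbers were not taken to pair them.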

Additional observations from a re-analysis of the deposited data

How the results depend on the processing

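Of the 14 comparisons, the count of called members moved by over 1.5 times in 11 under at least 1 alternative. With DESeq2 it was 3 for het against WT in the GV translatome, 2 in the transcriptome, 2 between fractions in WT and 2 in het, 3 for WT 2-cell against 1-cell, 1 for arrested against het 2-cell and 2 against WT 2-cell. Without the low-count filter it was 1 in the transcriptome and 2 for WT 2-cell against 1-cell. With only the compared groups it was 0 between fractions in WT and 2 in het, 6 for WT and 5 for het 2-cell against 1-cell, 0 for arrested against het 1-cell, 1 against WT 1-cell and 0 against WT 2-cell, in fits where 0 of 17310 genes were called against het 1-cell and 0 of 19852 against WT 2-cell (3 and 2 members had an unadjusted p under 0.05). Without het 1-cell libraries 1 and 3 it was 2 for WT 2-cell against 1-cell and 1 for arrested against het 1-cell. Leaving out each library gave 0 in the translatome, 0 to 1 between fractions in WT and in het, 0 to 1 for het against WT 1-cell, 1 to 2 for WT 2-cell against 1-cell, 1 to 3 for arrested against het 1-cell and against WT 1-cell, 0 to 1 against het 2-cell and 0 to 2 against WT 2-cell. The causes were not tested.

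With the replicate block the count in the translatome was 0 (Mad1l1 -1.04, adjusted p = 0.0687), and that for WT 2-cell against 1-cell was 2. For het against WT in GV oocytes the block was the replicate number, which no label ties across genotypes. Only the comparisons that set the GV fractions against each other were paired by specimen. In embryos the numbers pair nothing by the labels. The block also ended the call of Bub3 against WT 1-cell (adjusted p = 0.0502).

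Mad2l1 changed sign: het against WT 1-cell was 0.21 without het 1-cell libraries 1 and 3. Its het 2-cell against 1-cell change ran from -1.40 to 1.34 over left-out libraries. Against het 1-cell, arrested embryos gave -0.79 without libraries 1 and 3 and -0.24 to 3.0 over left-out libraries. Of 90 pairs of a member and a comparison that no setting called, 54 kept their sign in every alternative. Depth limits Rec8 and Sgo2b, with 0 to 11 and 0 to 31 counts in het 2-cell and arrested libraries.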
